A study of Homo sapiens with 4 samples.

Results

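The sorting nexins are the proteins whose genes carry an SNX symbol followed by a number, and retromer is the protein complex built from VPS35, VPS29 and VPS26A or VPS26B. Members were found by gene symbol alone, and 34 of the 19192 genes in the count files matched, 30 sorting nexins and 4 retromer genes. No measured value entered that rule. The cells were SW480, an established cell line from a human colon cancer, and they gave 4 libraries, 1 per group. The groups were IMP1-/- ribosome-protected fragments (RPF, the pieces of mRNA covered by ribosomes), IMP1-/- total RNA, wild-type RPF and wild-type total RNA, and each library pooled 3 culture plates. IGF2BP1 encodes IMP1, a protein that binds mRNA, and the labels name no clone and no way in which the gene was disrupted. With 1 library per group there is no replicate check, no p-value is given, and genotype cannot be told apart from clone or culture. Nor can fewer cells that express a gene and less RNA per cell be told apart in bulk libraries.

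Sorting nexins carry a PX domain, which binds phosphoinositides and in many members the phosphatidylinositol 3-phosphate of endosomes. Retromer and its sorting nexin partners collect receptors and transporters from endosomes and return them to the Golgi or the cell surface, so that they escape breakdown in the lysosome. SNX-BAR members also carry a banana-shaped BAR domain that bends membrane into tubules. In intestinal epithelium this route carries receptors, transporters and the Wnt carrier protein WLS.

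Library totals were 3778316 counts for knockout-labelled RPF, 4932388 for knockout-labelled RNA, 3782874 for wild-type RPF and 5551479 for wild-type RNA. IGF2BP1 had 571 RNA reads in the knockout-labelled library and 598 in wild type, a log2 change of 0.08 (95% interval −0.08 to 0.25). Its footprints were 149 in the knockout-labelled library and 285 in wild type, a log2 change of −0.93 (−1.23 to −0.65). Since its scaled RNA level was not lower, the IMP1-/- libraries are called knockout-labelled throughout. For wild-type RNA the labels give SW840 as the line but SW480 as the source, and that library enters each RNA and TE comparison below. The 6 epithelial markers summed to 27880 RNA reads in the knockout-labelled library and 45792 in wild type, and to 76697 footprints in the knockout-labelled library and 95572 in wild type, with KRT20 at 0 reads in each library. They did not move together, since KRT8 and KRT18 were called lower in RNA, CDH1 was called higher in RNA (286 reads in the knockout-labelled library and 83 in wild type), and EPCAM and KRT19 were not called. The 5 intestinal markers summed to 105 RNA reads in the knockout-labelled library and 433 in wild type, and to 72 footprints in the knockout-labelled library and 443 in wild type. Of these LGALS4 was at 0 in each library, and VIL1 had 2 reads in knockout-labelled RNA and 160 in wild-type RNA. The 4 leukocyte markers summed to between 0 and 2 reads per library, the 4 mesenchymal markers analysed to between 1 and 27, and the 3 endothelial markers to between 0 and 58. The mesenchymal list held 5 genes, of which only 4 were analysed, so its sum does not cover the whole list. The part of the markers in the results was not tested.

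Most members had reads, and they spanned a wide range of levels. At least 1 read was counted for 32 members in each of the knockout-labelled libraries, for 30 in wild-type RPF and for 32 in wild-type RNA. Of all 19192 genes, 14549 had reads in knockout-labelled RNA and 14631 in wild-type RNA. In footprints 13236 genes had reads in the knockout-labelled library and 13144 in wild type. SNX32, a paralog of SNX5 and SNX6, had 0 reads in all 4 libraries. SNX31, which has a FERM-like domain as SNX17 does, had 0 reads in both RNA libraries, with 2 footprints in the knockout-labelled library and 0 in wild type. SNX20, known from leukocytes for binding the adhesion receptor PSGL-1, had 3 RNA reads in the knockout-labelled library and 1 in wild type, and no footprint. A count of 0 allows up to 3 counts, or a level in CPM (reads per 1000000 of the library total) of 0.794 for knockout-labelled RPF, 0.608 for knockout-labelled RNA, 0.793 for wild-type RPF and 0.540 for wild-type RNA. Together the members took 0.166% of knockout-labelled and 0.200% of wild-type footprints, and 0.194% of knockout-labelled and 0.184% of wild-type RNA reads.

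**Figure D1:**
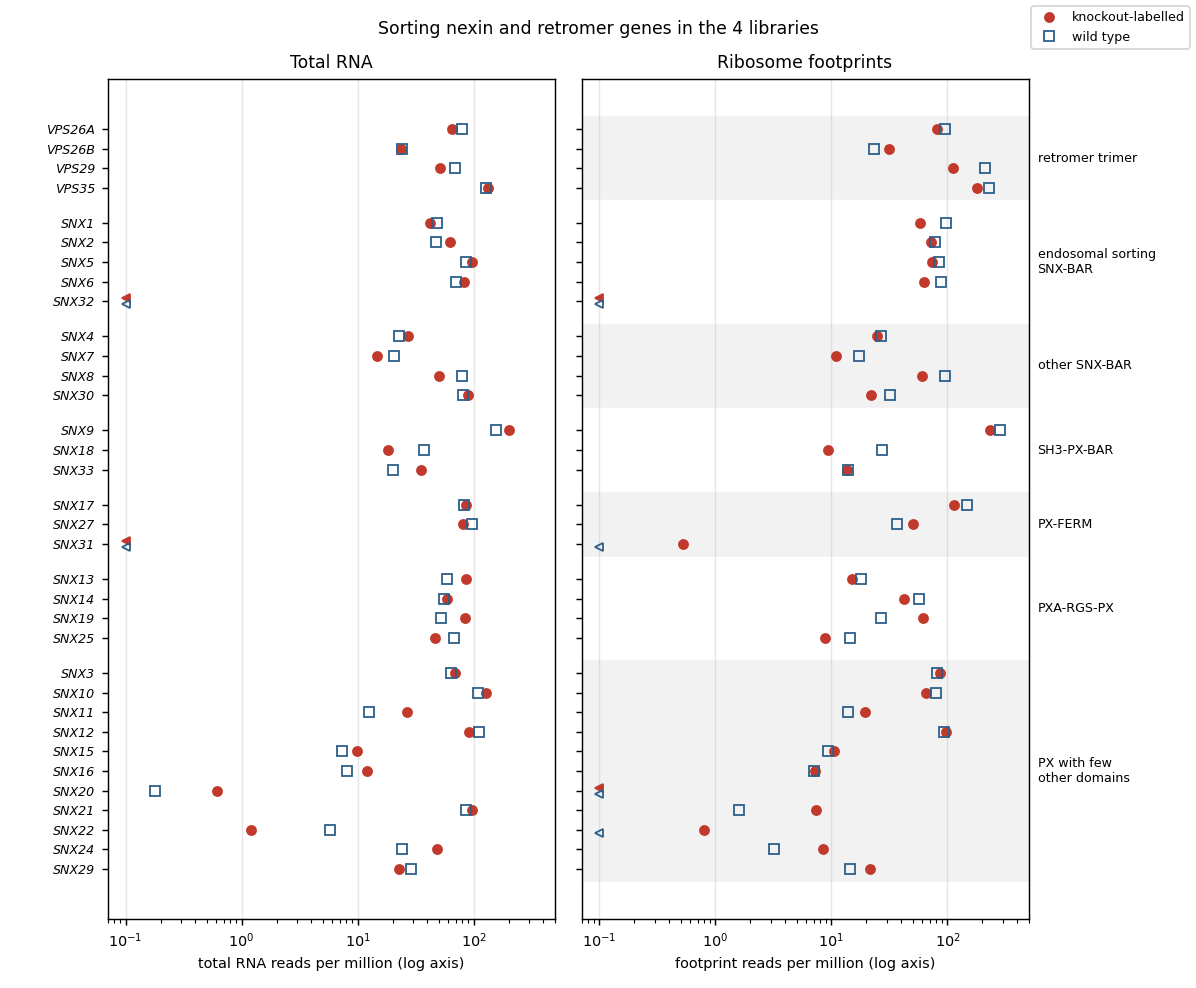
CPM of the 34 members in total RNA and in ribosome footprints, on log axes, grouped by role. Filled circles are the knockout-labelled library and open squares the wild-type library, 1 library each with no error bar, and triangles at the left edge mark 0 reads. SNX9 and VPS35 lie at the right in both panels, while SNX20, SNX22, SNX31 and SNX32 lie at or near 0.

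Levels were ordered per kilobase of the transcript listed for each gene, as CPM per kb. In RNA, SNX21 stood first, with 53.2 CPM per kb in the knockout-labelled library (95% Poisson interval 48.6 to 58.2) and 46.8 in wild type (42.7 to 51.2). Its interval overlapped those of SNX10 and SNX9 in the knockout-labelled library and those of SNX12, VPS29, SNX10 and SNX17 in wild type, so this order is not resolved. Per kilobase of coding sequence SNX10 stood first in the knockout-labelled library and SNX12 in wild type. In footprints VPS29 stood first in both genotypes. It had 72.6 CPM per kb in the knockout-labelled library (65.8 to 79.9) and 137 in wild type (128 to 147). SNX17 and SNX9 followed in both, at 56.2 and 55.4 CPM per kb in the knockout-labelled library and at 71.5 and 67.7 in wild type. The intervals of those neighbours overlapped, and in each genotype VPS29 lay clear of them. Per kilobase of coding sequence VPS29 was again first, and in the knockout-labelled library its interval overlapped those of SNX12 and SNX3.

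Footprints per RNA read varied widely among members. The measure is log2 of footprint CPM over RNA CPM within a genotype. It is given for the 28 members with at least 50 reads over both libraries in each kind of library, a minimum that the other 6 members missed. Over these members it ran between −2.50 and 1.102 in the knockout-labelled cells and between −2.22 and 1.59 in wild type. The member medians were −0.25 in the knockout-labelled cells and 0.002 in wild type, while over the 9598 genes measured they were 0.13 in the knockout-labelled cells and 0.11 in wild type. VPS29 was highest in both, at 1.102 in the knockout-labelled cells (0.88 to 1.33) and 1.59 in wild type (1.41 to 1.76). Among the 28, SNX13 and SNX25 were the 2 lowest in both, at −2.50 and −2.40 in the knockout-labelled cells and −1.71 and −2.22 in wild type. Both belong to the group with PXA and RGS-like domains. SNX13 is linked to cholesterol export from lysosomes, and SNX25 to the breakdown of TGF-beta receptors. The minimum itself removes members with few footprints, and SNX21 lay lower still, at −3.69 (−4.23 to −3.14) in the knockout-labelled cells and −5.64 (−6.75 to −4.52) in wild type. SNX24, also short of the minimum, had −2.50 (−3.03 to −1.97) in the knockout-labelled cells and −2.86 (−3.70 to −2.03) in wild type.

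The sequences around the start codon are shown for the members at both ends of this scale, in the transcripts of GENCODE release 29 on GRCh38. The first 5 were above the upper quartile of all genes in wild type, and the next 4 were below the lower quartile in both genotypes. SNX21, which missed the footprint minimum but had the lowest ratio on many RNA reads, is last. Each line gives 27 bases, 5′ to 3′, and capitals mark the start codon with the positions −3 and 4 counted from its A, the bases that most affect start codon recognition.
VPS29: cccggtgacAggATGTtggtgttggta
SNX1: gggtggaagAagATGGcgtcgggtggt
SNX17: gccgtagggAacATGCacttttccatt
VPS35: tggggagtcGccATGCctacaacacag
SNX9: gacccgcccGccATGGccaccaaggct
SNX13: cggggtgtaAtaATGTtaactgaggcc
SNX25: atttctcatAatATGGataaagctctg
SNX27: cctgctcgcAagATGGcggacgaggac
SNX30: gcggtgcgcGccATGGcgggcgggccc
SNX21: ccccagggtGccATGGcctcccggctc

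The first 9 all had a purine at position −3, as did 85.4% of 17768 annotated transcripts. A G followed the start codon in 2 of the 5 members high in wild type and in 3 of the 4 low in both genotypes, beside 50.9% of all transcripts. No ATG preceded the start codon in 4 of the 5 and in 2 of the 4, beside 47.7% of all transcripts. SNX25 had 3 upstream ATGs and SNX13 had 2, and SNX17 among the high members also had 2. SNX21 had a purine at position −3, a G after the start codon and 2 upstream ATGs. With so few members these counts are a description, and the part of the start context in the ratio was not tested. Transcript length varied with this measure. Across the 28 members the correlation of log2 length with log2 footprints per RNA read was −0.47 in the knockout-labelled cells and −0.55 in wild type (Pearson), with Spearman's rho of −0.46 in the knockout-labelled cells and −0.53 in wild type. Across 9508 genes with a coding annotation Pearson's r was −0.46 in the knockout-labelled cells and −0.41 in wild type. These are descriptions over genes that share the same libraries, and which region of a transcript was counted is not known. SNX30 and SNX27 had the longest 3′ untranslated regions of the 4 low members, at 6144 and 5490 nt, against 908 nt for VPS29. SNX25, with 506 nt, and SNX21, with 417 nt, went against this pattern. VPS35, with 4340 nt, also went against it.

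**Figure D2:**
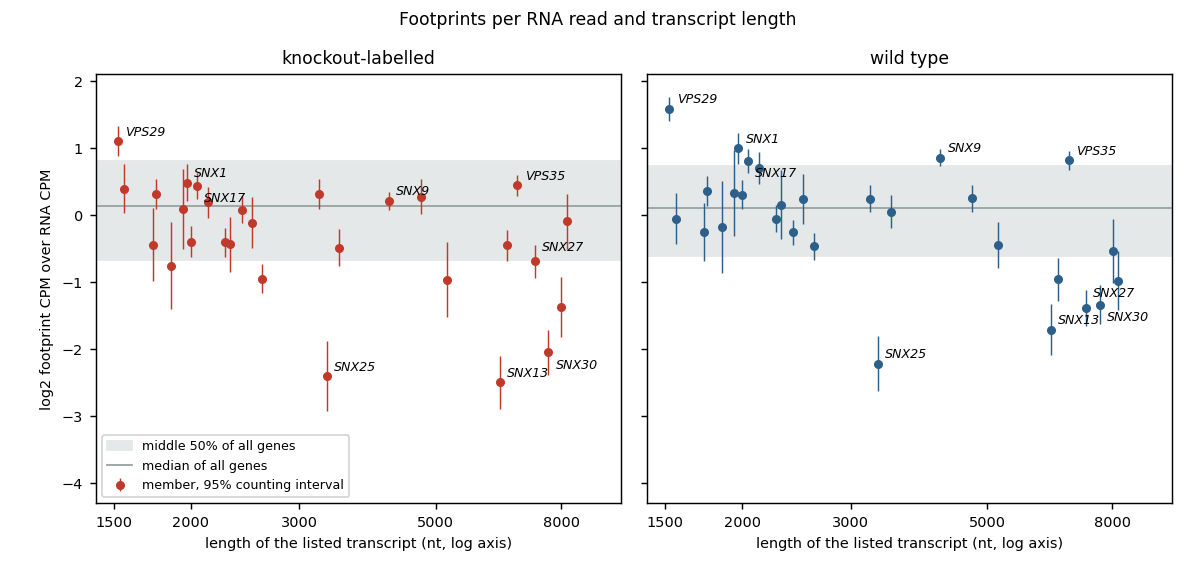
Footprint CPM over RNA CPM (log2) against the length of the listed transcript in nt on a log axis, for the 28 members, in knockout-labelled cells on the left and wild type on the right. Bars are 95% counting intervals and the grey band is the middle 50% of all genes. VPS29 is highest in both panels, and SNX25 lies at −2.40 and −2.22, below the band in both. SNX21 and the other members short of the minimum are not plotted.

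In total RNA few members were called. Changes are log2 ratios after scaling, with wild type as the denominator. A call needed a change of 1.5-fold or more with a 95% counting interval that excluded no change. Of 30 members with at least 50 reads, 4 were called higher and 2 lower, against 16.2% called higher and 17.8% called lower of the 10875 genes measured. In all 20% of members and 34% of all genes were called. The member median was 0.12, beside −0.01 over all genes. The 4 members short of the minimum were SNX20, SNX22, SNX31 and SNX32. SNX22 came nearest to it, with 38 reads over both libraries, and SNX15, with 90, was the nearest above it. The reads of SNX22 were 6 in the knockout-labelled library and 32 in wild type, a change of −2.17 (−3.81 to −0.99).

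The retromer trimer had no call in RNA. VPS35, the scaffold of the complex (chromosome 16, 46656132 to 46689192, minus strand, GRCh38), had 656 reads in the knockout-labelled library and 710 in wild type, a change of 0.04 (−0.12 to 0.19). VPS29, which binds one end of VPS35 and also recruits the regulators TBC1D5 and ANKRD27 (chromosome 12, 110491097 to 110502117, minus strand), had 254 reads in the knockout-labelled library and 386 in wild type, a change of −0.45 (−0.69 to −0.22). The VPS29 interval excluded no change, but the change was less than 1.5-fold. VPS26A and VPS26B, alternative arrestin-like subunits, had changes of −0.32 (−0.53 to −0.11) and −0.04 (−0.41 to 0.32).

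The members called lower in RNA were SNX18 and SNX8. SNX18, an SH3-PX-BAR protein of clathrin-mediated endocytosis and autophagosome formation (chromosome 5, 54517763 to 54546585, plus strand), had 90 reads in the knockout-labelled library and 206 in wild type, 2.05-fold lower (log2 −1.04, −1.42 to −0.68). The annotation lists 16 pseudogene copies of SNX18, so the assignment of its reads is uncertain. SNX8, an SNX-BAR protein of endosome-to-Golgi transport (chromosome 7, 2251770 to 2314464, minus strand), had 247 reads in the knockout-labelled library and 443 in wild type, 1.61-fold lower (−0.69, −0.92 to −0.46).

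The members called higher in RNA were SNX11, SNX24, SNX33 and SNX19. SNX11, a PX protein of endosomes (chromosome 17, 48107585 to 48122743, plus strand), had 131 reads in the knockout-labelled library and 70 in wild type, 2.07-fold higher (1.05, 0.63 to 1.495). SNX24, a short PX-only protein (chromosome 5, 122845449 to 123009212, plus strand), had 240 reads in the knockout-labelled library and 133 in wild type, a change of 1.00 (0.69 to 1.32). SNX33, which like SNX18 has SH3, PX and BAR domains (chromosome 15, 75647906 to 75662301, plus strand), had 174 reads in the knockout-labelled library and 111 in wild type, 1.74-fold higher (0.80, 0.45 to 1.16). Exons of IMP3 on the opposite strand overlap 10% of its transcript, and the use of strand in counting is not given. Within the SH3-PX-BAR group SNX18 and SNX33 were thus called in opposite directions. SNX19, a PXA and PX protein at contacts between endoplasmic reticulum and endolysosomes (chromosome 11, 130875436 to 130916509, minus strand), had 417 reads in the knockout-labelled library and 292 in wild type, 1.59-fold higher (0.66, 0.45 to 0.89). It has 3 annotated pseudogene copies, and SNX2, SNX5, SNX6, SNX25, SNX33, VPS26A, VPS26B and VPS35 have 1 each, so their reads may be split too.

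The endosomal sorting SNX-BAR proteins form heterodimers of SNX1 or SNX2 with SNX5 or SNX6, and none of their 4 RNAs was called. SNX1 had 206 reads in the knockout-labelled library and 269 in wild type, and SNX2 had 310 in the knockout-labelled library and 263 in wild type. Their changes were −0.23 (−0.50 to 0.03) and 0.39 (0.15 to 0.63). The log2 ratio was 0.14 (−0.05 to 0.32) for SNX5 and 0.20 (−0.01 to 0.40) for SNX6, neither beyond counting error. The cargo adaptors SNX17, SNX27 and SNX3 had RNA changes of 0.01, −0.26 and 0.10. SNX9, the most abundant member by reads, had 989 RNA reads in the knockout-labelled library and 871 in wild type, a change of 0.33 (0.20 to 0.47).

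In ribosome footprints 1 member was called higher, and the share of members called lower was near that of all genes. Of 28 members measured, 6 were called lower and 1 higher, against 20.1% called lower and 19% called higher of the 9794 genes measured. The called share was 25% of members, beside 39.1% of all genes. The member median was −0.24, beside −0.0007 over all genes, and 20 of the 28 changes were below 0. SNX21 and SNX24 fell short of the minimum with 34 and 44 footprints over both libraries, and SNX16, with 54, was the nearest above it.

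VPS29 gave the retromer call. It had 418 footprints in the knockout-labelled library and 790 in wild type, 1.89-fold lower (−0.92, −1.09 to −0.75). VPS35 had 685 footprints in the knockout-labelled library and 854 in wild type, a change of −0.32 (−0.47 to −0.17). VPS26A had 305 in the knockout-labelled library and 357 in wild type, a change of −0.23 (−0.45 to −0.003). VPS26B had 118 in the knockout-labelled library and 88 in wild type, a change of 0.42 (0.01 to 0.84). The 2 alternative VPS26 subunits therefore had changes of opposite sign, neither of them called. Exons of NCAPD3 on the opposite strand overlap 15.98% of the VPS26B transcript.

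SNX18 had the largest footprint difference of the members measured. It had 35 footprints in the knockout-labelled library and 103 in wild type, 2.92-fold lower (−1.54, −2.15 to −0.99). SNX1 (chromosome 15, 64096000 to 64138006, plus strand) had 221 footprints in the knockout-labelled library and 366 in wild type, 1.66-fold lower (−0.73, −0.98 to −0.48). SNX8 had 229 footprints in the knockout-labelled library and 359 in wild type, 1.57-fold lower (−0.65, −0.90 to −0.41). Fewer reads stood behind SNX25, with 33 footprints in the knockout-labelled library and 55 in wild type, and SNX7, with 41 in the knockout-labelled library and 65 in wild type. SNX7 is an SNX-BAR partner of SNX4. The footprint changes of SNX25 and SNX7 were −0.73 (−1.41 to −0.09) and −0.66 (−1.27 to −0.08). In RNA SNX25 had 231 reads in the knockout-labelled library and 378 in wild type, a change of −0.56 (−0.80 to −0.32). SNX7 had 73 RNA reads in the knockout-labelled library and 114 in wild type, a change of −0.49 (−0.94 to −0.06). Both RNA changes were short of 1.5-fold.

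SNX19 was the member called higher in footprints, with 234 in the knockout-labelled library and 102 in wild type, 2.29-fold higher (1.19, 0.86 to 1.55). SNX19, SNX18 and SNX8 were each called in the same direction in RNA and in footprints. The matching share over all genes was not counted, so these genes are only listed. The sorting nexin SNX21, whose RNA had 479 reads in the knockout-labelled library and 474 in wild type, had 28 footprints in the knockout-labelled library and 6 in wild type. SNX11 had 74 footprints in the knockout-labelled library and 53 in wild type, a change of 0.48 (−0.05 to 1.018). SNX24 had 32 footprints in the knockout-labelled library and 12 in wild type. SNX21 and SNX24 were below the minimum and are left out of the counts.

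**Figure D3:**
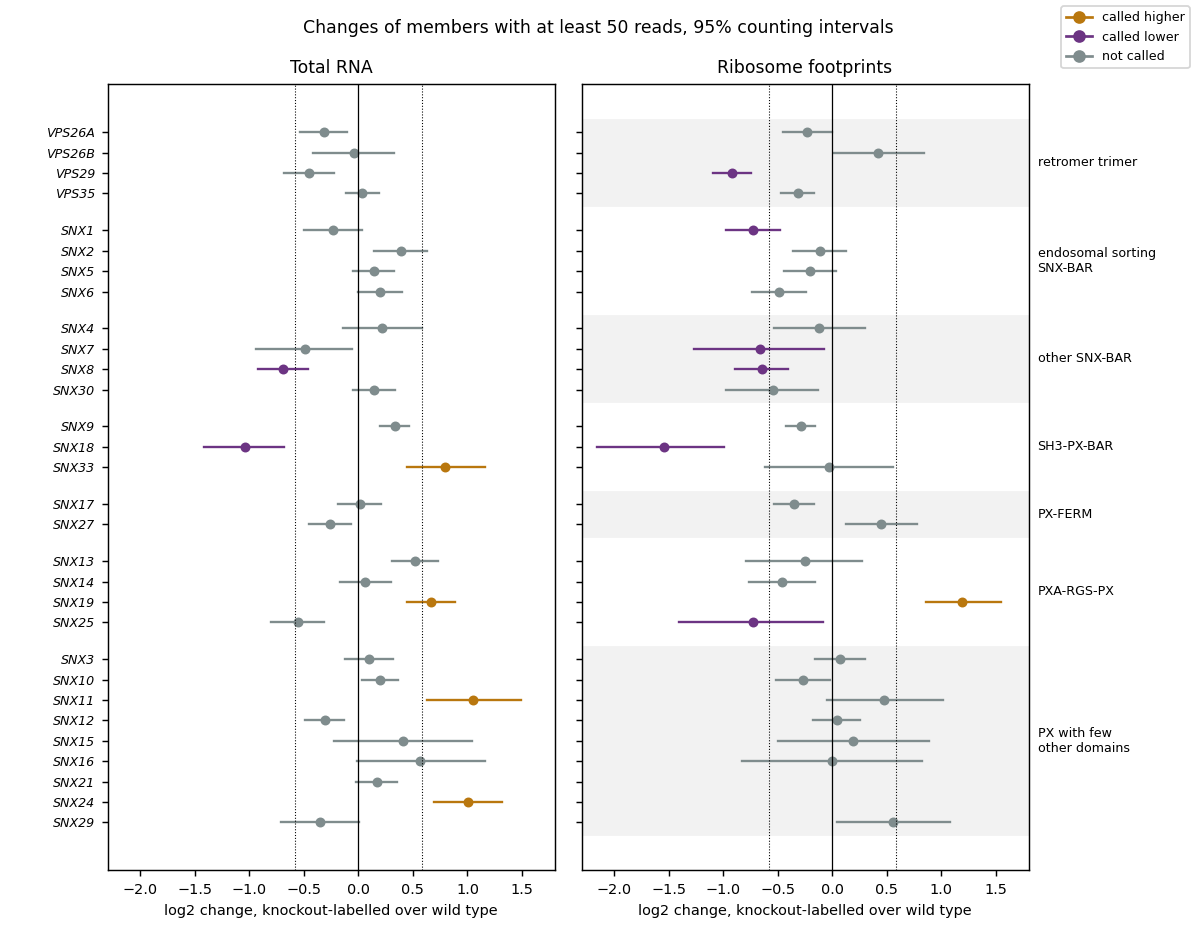
Log2 change of each member, knockout-labelled over wild type, in total RNA for 30 members and in footprints for 28, grouped by role. Points are the ratio of 1 library to 1 library, bars are 95% counting intervals, and dotted lines mark 1.5-fold. SNX18 and SNX8 are called lower in both panels and SNX19 is called higher in both, while VPS29 is called in footprints only.

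The footprint change lay below the RNA change for most members. Translational efficiency (TE) change is the footprint change minus the RNA change. It was below 0 for 21 of 28 members (75%), beside 47.9% of the 9598 genes measured, and the member median was −0.36, beside 0.03 over all genes. The interval lay wholly below 0 for 13 members (46.4%), beside 21.5% of all genes, and wholly above 0 for 4 members, beside 24.9% of all genes. At 1.5-fold, 5 members were called lower and 2 higher, together 25%, against 13.9% called lower and 15.7% called higher of all genes, together 29.6%. At the minimum of 50 reads the called share over both directions was thus below that of all genes, an order that did not hold with no minimum.

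SNX9 had the narrowest interval. It had 879 footprints in the knockout-labelled library and 1075 in wild type, set against RNA reads that differed the other way, and its TE change was −0.63 (−0.81 to −0.44). SNX9 binds dynamin and helps to assemble actin at endocytic sites. SNX6, a partner of SNX1 and SNX2, had 237 footprints in the knockout-labelled library and 332 in wild type and a TE change of −0.68 (−0.997 to −0.37). The 4 measured members of the endosomal sorting SNX-BAR group all had TE changes below 0, between −0.68 and −0.34, with every interval excluding no change. SNX5 came closest to no change, at −0.34 (−0.63 to −0.04).

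The other TE calls on the lower side were SNX33, SNX13 and SNX30. SNX33 had 51 footprints in the knockout-labelled library and 52 in wild type beside its higher RNA, a TE change of −0.83 (−1.48 to −0.17). SNX13 had 57 footprints in the knockout-labelled library and 68 in wild type, and 423 RNA reads in the knockout-labelled library and 328 in wild type, a TE change of −0.77 (−1.32 to −0.22). SNX30, an SNX-BAR partner of SNX4, had 82 footprints in the knockout-labelled library and 120 in wild type, with 445 RNA reads in the knockout-labelled library and 447 in wild type, and a TE change of −0.69 (−1.14 to −0.25). VPS29 and VPS35 had TE changes of −0.47 (−0.75 to −0.18) and −0.36 (−0.57 to −0.14), short of 1.5-fold.

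The members called in both RNA and footprints had no TE call. SNX19 had a TE change of 0.53 (0.13 to 0.93), SNX18 of −0.51 (−1.16 to 0.15) and SNX8 of 0.04 (−0.29 to 0.37). SNX1 had a TE change of −0.49 (−0.85 to −0.14), while SNX7 and SNX25 each had −0.17 with intervals that included no change. RNA and footprint changes had the same sign in 11 of 28 members (39.3%), beside 67.8% of all genes.

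The 2 members called higher in TE were SNX29 and SNX27. SNX27 carries a PDZ domain and links retromer to receptors bound for the cell surface (chromosome 1, 151612029 to 151699091, plus strand). It had 190 footprints in the knockout-labelled library and 139 in wild type, with 401 RNA reads in the knockout-labelled library and 534 in wild type, and a TE change of 0.71 (0.34 to 1.08). SNX29 (chromosome 16, 11976738 to 12574289, plus strand) had 81 footprints in the knockout-labelled library and 55 in wild type, with 113 RNA reads in the knockout-labelled library and 160 in wild type, and a TE change of 0.90 (0.30 to 1.504). The annotation lists 2 pseudogene copies of SNX29, and the assignment of its reads is uncertain. The 2 FERM-like adaptors measured differed in sign, since SNX17, which sorts integrins and LRP1 through the retriever complex, had a TE change of −0.36 (−0.62 to −0.10).

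A further 13 of the 28 members had no call in RNA, footprints or TE. They were SNX2, SNX3, SNX4, SNX5, SNX10, SNX12, SNX14, SNX15, SNX16, SNX17, VPS26A, VPS26B and VPS35. The share of all genes without a call in any of these measures was not counted, so these members are only listed. SNX3, which brings retromer to WLS, was near no change in all 3 measures, at 0.10 in RNA, 0.07 in footprints and −0.03 in TE. Its TE interval was −0.34 to 0.28. Its paralog SNX12 had a TE change of 0.35 (0.08 to 0.62). Reads of SNX15 cannot be told apart from those of the read-through gene ARL2-SNX15, which covers 99.9% of its transcript on the same strand. For SNX14 another coding gene model on the same strand overlaps 14.1% of the transcript.

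**Figure D4:**
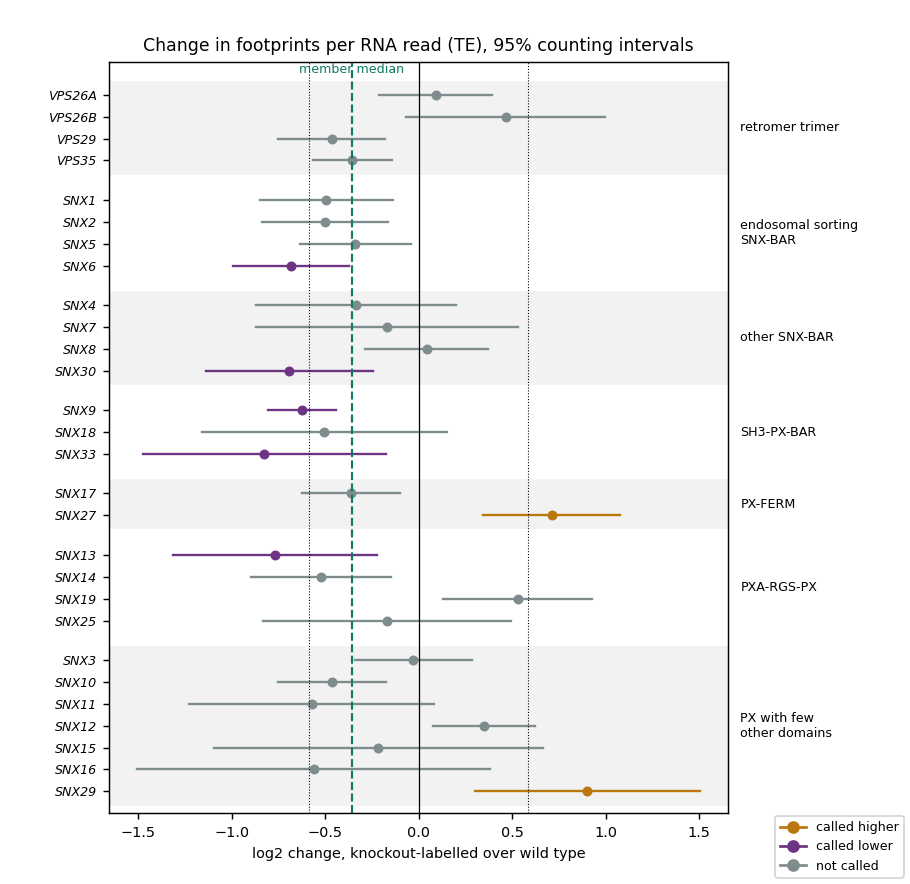
TE change (log2, knockout-labelled over wild type) of the 28 members measured in both kinds of library, grouped by role, with 95% counting intervals from 1 library per group. The dashed line is the member median of −0.36 and dotted lines mark 1.5-fold. Most points lie left of 0, and SNX27 and SNX29 are called on the right.

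The partners of the pathway went in mixed directions, and their lists are described by counts and medians against the background values given above. Of 14 genes of retriever and the CCC complex, another recycling machinery of endosomes, 5 were called higher and 1 lower in RNA, and 4 higher and 2 lower in footprints. The called share was 42.9% in each, beside 34% of all genes in RNA and 39.1% in footprints. COMMD1, a CCC subunit, had 320 footprints in the knockout-labelled library and 81 in wild type, 3.93-fold higher, with RNA 2.28-fold higher. COMMD8 was 2.59-fold higher in footprints with an RNA change of −0.14 (−0.68 to 0.38). COMMD4 was 1.97-fold lower in RNA. VPS29 is shared between retriever and retromer. The list medians were 0.11 in RNA, 0.18 in footprints and 0.13 in TE, where 2 genes were called higher and 2 lower. That TE share was 28.6%, beside 29.6% of all genes.

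The WASH complex, which nucleates actin on endosomes for retromer, was near no change for most subunits. Of 10 genes 2 were called lower in RNA and 1 in footprints, with 0 higher in either. Called shares of the WASH complex were 20% in RNA, beside 34% of all genes, and 10% in footprints, beside 39.1%. CCDC53, its WASHC3 subunit, was 1.95-fold lower in RNA and 1.53-fold lower in footprints, and FKBP15 was 1.64-fold lower in RNA with a TE change of 0.90 (0.42 to 1.38). The shared capping protein subunit CAPZB had a footprint change of −0.55 (−0.69 to −0.41). Medians of the WASH genes were −0.06 in RNA, −0.10 in footprints and −0.05 in TE, where 1 gene was called higher and 0 lower. That TE share was 10%, beside 29.6% of all genes.

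Of 7 retromer regulators measured, 2 were called higher and 1 lower in RNA, and 1 higher and 1 lower in footprints. Called shares were 42.9% in RNA, beside 34% of all genes, and 28.6% in footprints, beside 39.1%. RAB7A, the GTPase that recruits retromer, had 1568 RNA reads in the knockout-labelled library and 1111 in wild type, 1.57-fold higher, and a footprint change of 0.45. TBC1D5, which inactivates RAB7 and binds VPS29, had 45 footprints in the knockout-labelled library and 97 in wild type, 2.14-fold lower, with an RNA change of −0.18 and a TE change of −0.92. ANKRD27, another partner of VPS29, was 2.04-fold lower in RNA, with a TE change of 0.60. Medians of the regulators were 0.48 in RNA, 0.43 in footprints and −0.13 in TE, where 1 gene was called higher and 1 lower. That TE share was 28.6%, beside 29.6% of all genes.

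Of 17 cargo genes analysed here, 6 were called higher and 0 lower in RNA (35.3%, beside 34% of all genes), and 6 higher and 2 lower in footprints (47.1%, beside 39.1% of all genes). The cargo list held 19 genes, and IGF2R and SLC2A1 were not among the genes analysed. NRP1, a receptor for semaphorins and VEGF, was 2.95-fold higher in RNA and 3.03-fold higher in footprints. The transferrin receptor TFRC had 1866 RNA reads in the knockout-labelled library and 894 in wild type, and the integrin gene ITGB1 had 1617 in the knockout-labelled library and 834 in wild type. The sorting receptor SORT1 had 691 RNA reads in the knockout-labelled library and 800 in wild type, and 138 footprints in the knockout-labelled library and 281 in wild type, a TE change of −0.96 (−1.29 to −0.64). SEMA4C also had a TE call on the lower side, at −0.97. Cargo medians were 0.15 in RNA, 0.06 in footprints and −0.18 in TE, where 0 genes were called higher and 4 lower. That TE share was 23.5%, beside 29.6% of all genes.

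Of 9 phosphoinositide enzymes, which make and turn over the lipids that PX domains bind, 1 was called higher and 0 lower in both RNA and footprints. That gene was PIK3R4, the regulatory subunit of the class III kinase, with 153 footprints in the knockout-labelled library and 53 in wild type, 2.87-fold higher. The called share of the enzymes was 11.1% in each, beside 34% of all genes in RNA and 39.1% in footprints. The catalytic subunit PIK3C3 had RNA and footprint changes of 0.37 and 0.10. Medians of the 9 enzymes were 0.11 in RNA, 0.10 in footprints and 0.07 in TE, where 2 genes were called higher and 1 lower. That TE share was 33.3%, beside 29.6% of all genes. Genes with a PX domain but no SNX symbol had 3 of 14 called higher and 3 lower in RNA, and 1 of 12 higher and 2 lower in footprints. Their called shares were 42.9% in RNA, beside 34% of all genes, and 25% in footprints, beside 39.1%. Medians of these PX genes were −0.30 in RNA, −0.15 in footprints and −0.10 in TE, where 0 genes were called higher and 3 lower. That TE share was 25%, beside 29.6% of all genes. HOPS, CORVET and GARP tethers, which dock endosomal vesicles, had 3 of 12 called higher and 0 lower in RNA, and 1 higher and 2 lower in footprints. Their called share was 25% in each, beside 34% of all genes in RNA and 39.1% in footprints. The tether list held 13 genes, of which 12 were analysed. TGFBRAP1, a CORVET subunit, had 103 footprints in the knockout-labelled library and 193 in wild type, 1.87-fold lower. Tether medians were 0.10 in RNA, 0.04 in footprints and −0.10 in TE, where 0 genes were called higher and 2 lower. That TE share was 16.7%, beside 29.6% of all genes.

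**Figure D5:**
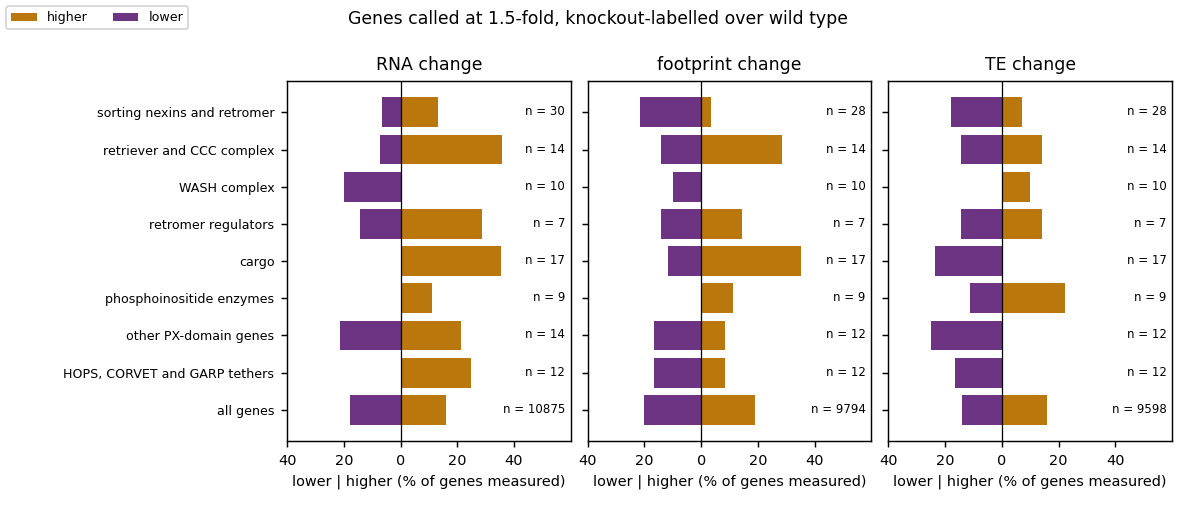
Share of genes called higher (right of 0) and lower (left of 0) at 1.5-fold, knockout-labelled over wild type, as a percentage of the genes measured in each list, with n beside each bar. The sorting nexin and retromer genes have 6 of 28 called lower and 1 higher in footprints, the cargo genes have 6 of 17 called higher in RNA and in footprints, and all genes form the bottom row.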

How the data were processed

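Per the labels' protocols, size selection kept 18 to 34 nt for footprints and 18 to 50 nt for fragmented RNA, linkers carried random identifiers, and rRNA was removed. HISAT2 2.1.0, Bowtie 1.1.2, cutadapt 1.10 and GRCh38 appear in the submitters' processing notes. Their roles, the annotation, the counted region, strand and multi-mapping rules and any use of the identifiers are not stated there. The authors deposited raw whole-number read counts per gene, with 1 transcript per gene. Of the transcripts, 99.9% were found in GENCODE release 29, all 34 members among them.

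Libraries of 1 kind were scaled with TMM factors (R 4.3.3, edgeR 4.0.16), with a knockout-labelled to wild-type ratio of 0.900 for RNA and 1.00 for RPF. Changes are log2 ratios with a prior count of 0.5. RNA and RPF intervals are exact conditional (Clopper-Pearson) 95% intervals. For TE and footprints per RNA read the 95% interval came from summed reciprocal counts. All intervals treat reads as independent counts and cover counting error only. Reads after PCR are not molecules, so the intervals may be too narrow even for that. The interaction of library kind and genotype leaves 0 residual degrees of freedom, so TE changes were not tested. Genes counted as measured in a kind of library from a summed 50 reads. Intervals and calls were tested on simulated data drawn with counting error only, the same error that the intervals assume. Such data cannot show how the calls behave under PCR copies or differences of clone or culture. Members with a call in any measure are given with the change that was called. Of each partner list up to 4 genes per comparison are given, ranked by the interval bound nearest to no change. The members and lists were chosen with earlier results of these data known. Alternatives were other scalings (DESeq2 1.42.0 size factors among them), read minimums, prior counts and folds. The remaining work was done in Python 3.11.15 with pandas 2.3.3, SciPy 1.17.1, NumPy 2.4.6 and matplotlib 3.10.9.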

Additional observations from a re-analysis of the deposited data

Results flagged for a closer look

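RPS6KC1, which encodes a PX-domain kinase-like protein and is in the list of other PX-domain genes, was called higher in RNA and lower in footprints, which put it among 116 of 9598 genes (1.21%) with calls in opposite directions. It had 139 RNA reads in the knockout-labelled library and 89 in wild type, and 34 footprints in the knockout-labelled library and 60 in wild type. Its TE change was −1.60 (95% counting interval −2.32 to −0.89). With 1 library per group the difference between the 2 kinds of library was not tested. No sorting nexin or retromer gene had calls in opposite directions.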

How the results depend on the processing

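No paired analysis was possible because each group had 1 library, and for the same reason no library could be left out. Under total counts, DESeq2 size factors, total counts without the MTRNR2L genes and PLCG2, and a prior count of 2, every count of members called stayed within 1.5 times of its value in the report, and no member's call changed direction. SNX16 gained a call in RNA (0.60) under the totals without abundant genes. Counts moved with the read minimum. With 20 reads and with no minimum, 3 members were called higher in footprints, SNX21 and SNX24 being added to SNX19. At both settings SNX22 was added to the members called lower in RNA, which made 3. SNX22 had only 3 footprints in the knockout-labelled library and 0 in wild type. With no minimum 4 members were called higher in TE, SNX21 and SNX22 being added. TE calls in either direction were then 29.03% of members, beside 27.76% of all genes, so the member share was no longer below. With 20 reads it was below, at 26.67% of members beside 30.35% of all genes. In RNA and footprints the member share stayed below that of all genes at both settings. With 200 reads, which left 18 members, footprint calls were 4 in all and 3 lower, and TE calls were 4 in all, 1 higher and 3 lower, which is 22.2% of members in each, beside 34.2% of all genes in footprints and 22.9% in TE. At 2-fold, RNA calls were 3 in all, 2 higher and 1 lower (10% of members, beside 14.7% of all genes), and footprint calls were 2 in all with 1 lower (7.14%, beside 18.9%). TE calls were 0 in all, 0 higher and 0 lower at 2-fold, where 12.7% of all genes were called. Ordering by coding length raised the level of VPS29 footprints to 203 CPM per kb in the knockout-labelled library and 382 in wild type. Precision is limited by depth for SNX4, SNX7, SNX11, SNX13, SNX15, SNX16, SNX18, SNX25, SNX29 and SNX33, each with under 200 footprints over both libraries.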
